A study of Mus musculus with 6 samples.

Results

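The liver secretory genes examined here are Alb, Afp, Ttr, Apoa1, Apoa2, Apob, Fgb, Serpina1a, Tat and Cps1, which are 10 of 21757 protein-coding genes. They were named as liver genes that depend on hepatocyte nuclear factors (HNF), to serve as a contrast in kidney. An accessible interval was assigned to a gene when it overlapped the span from 3 kb upstream of the gene start to the gene end in GENCODE M39 on GRCm39. This gave 40 intervals of 279569 in all, and each of the 10 genes had at least 1. The intervals come from assay for transposase-accessible chromatin sequencing (ATAC-seq), in which Tn5 transposase inserts sequencing adapters into open DNA. Each interval takes the fold enrichment over background and the -log10 q of its highest summit. Positions are in bp from the start of the canonical transcript, negative upstream, and a start site is this base.

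Nuclei came from mouse kidney cortex, with 3 libraries labelled WT and 3 labelled as tubule-specific Acly knockout (Acly cKO), all given the treatment label Control. By the methods, the controls were Acly fl/fl littermates without Cre, and the Acly cKO mice were Acly fl/fl with Ksp-Cre (Cdh16-Cre), which recombines in tubule epithelium broadly and not in every kidney cell. The age of the mice used for ATAC-seq is not given in the sources used here. The labels place WT libraries in batches 1 and 2 and the Acly cKO ones in batches 4 and 5, so that genotype and batch cannot be told apart. A single peak list pooled over libraries was used, which does not name the libraries in it. By the methods, the study also used 2 WT libraries deposited earlier, which are not among these and may be in the pool. No value below belongs to 1 genotype or 1 animal, no replicate error can be given, and no comparison of genotypes was made. The error printed is a 95% exact Poisson interval on the reads piled up at a summit, which covers counting error only.

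The liver releases most of the protein in blood plasma, including albumin, the apolipoproteins, fibrinogen and antitrypsin. In hepatocytes the promoters of these genes are bound by HNF1, HNF4, FOXA and C/EBP factors acting together. The proximal tubule of the kidney also uses HNF1 and HNF4 but is not a main source of these plasma proteins, so the genes have part of their liver regulators in this tissue. Tat and Cps1 encode intracellular enzymes of amino acid breakdown and the urea cycle and are not secreted.

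The upstream sequences of Alb, Afp and Fgb are shown first, because they were the 3 of 10 promoters with a match to the HNF1 consensus. Each is the 200 bases before the start in GRCm39, 5′ to 3′ on the strand of the gene. Capitals mark a match to HNF1 or, in Afp, also to HNF4 (the first capital run). Alb is chr5:90608549-90608748 on the plus strand, Afp is chr5:90638384-90638583 on the plus strand, and Fgb is chr3:82957171-82957370 on the minus strand.
Alb: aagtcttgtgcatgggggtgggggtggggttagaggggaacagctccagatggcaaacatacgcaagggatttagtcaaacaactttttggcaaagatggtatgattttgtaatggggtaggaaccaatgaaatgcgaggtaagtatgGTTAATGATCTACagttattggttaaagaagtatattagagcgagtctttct
Afp: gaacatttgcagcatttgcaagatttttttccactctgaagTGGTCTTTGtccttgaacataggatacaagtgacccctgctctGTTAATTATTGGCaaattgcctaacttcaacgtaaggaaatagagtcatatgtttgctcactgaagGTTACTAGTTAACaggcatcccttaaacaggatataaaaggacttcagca
Fgb: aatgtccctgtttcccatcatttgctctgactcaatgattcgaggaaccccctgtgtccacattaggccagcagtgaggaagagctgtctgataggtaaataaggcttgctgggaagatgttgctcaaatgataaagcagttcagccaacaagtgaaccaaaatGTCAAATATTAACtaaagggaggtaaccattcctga

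The consensus searched for HNF1 was GTTAATNATTAAC with up to 2 mismatches, on both strands, in the 300 bases from 250 before the start to 50 after it. Matches began at -52 in Alb, at -116 and -50 in Afp and at -36 in Fgb, each with 2 mismatches. Of all protein-coding promoters, 1.26% held such a match, and of those poor in CpG, as defined below, 2.47%. The letters are a description of the DNA and do not show that a factor was bound. The accessible signal at these promoters differed. The Fgb match began 12 bases before its summit, where the fold enrichment was 5.5, and the Alb match began 34 bases after a summit of 2.95, while Afp had no summit within 250 bp of its start.

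The other liver motifs matched at most 2 promoters each. HNF4 was searched as CAAAGTCCA with up to 1 mismatch and matched in Afp and Serpina1a, against 8.39% of all promoters and 11.1% of CpG-poor ones. FOXA was searched as TGTTTAC with no mismatch and matched in Apoa2 and Cps1, against 3.15% and 4.37%. C/EBP was searched as TTGCGCAA with up to 1 mismatch and matched in Fgb, against 6.37% and 4.75%. None of the matches of 1 motif in these promoters shared bases with a match of another. The promoters of Ttr, Apoa1, Apob and Tat held no match to any of these motifs under these settings, which says only that these letters were not in the window.

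The next upstream sequences are shown as examples of start sites without an HNF1 match under the settings above. They are from a gene with a wide interval over its start, the gene with near-identical copies and a gene with no interval there. Apob (chr12:8027448-8027647, plus strand) and Serpina1a (chr12:103829811-103830010, minus strand) had a summit in or beside the printed bases. Tat (chr8:110716863-110717062, plus strand) had no interval within 1 kb. Capitals mark the HNF4 match of Serpina1a. Its lower-case bases hold gttaat, the first letters of the HNF1 consensus, in a stretch with more mismatches than were allowed.
Apob: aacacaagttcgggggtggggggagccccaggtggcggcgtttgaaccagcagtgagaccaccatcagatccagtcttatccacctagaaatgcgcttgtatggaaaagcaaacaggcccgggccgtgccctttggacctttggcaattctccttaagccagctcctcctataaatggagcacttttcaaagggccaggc
Serpina1a: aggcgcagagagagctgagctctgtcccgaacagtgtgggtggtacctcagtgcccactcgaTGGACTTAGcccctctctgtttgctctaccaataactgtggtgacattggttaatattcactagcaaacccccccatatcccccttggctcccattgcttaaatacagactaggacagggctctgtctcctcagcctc
Tat: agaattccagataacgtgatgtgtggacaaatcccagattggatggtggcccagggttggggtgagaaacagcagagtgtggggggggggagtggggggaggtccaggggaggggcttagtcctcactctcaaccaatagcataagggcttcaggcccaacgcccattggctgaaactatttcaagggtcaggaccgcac

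Most of the stronger signal lay inside the genes, so 4 windows of 101 bases centred on a summit are also shown, picked because they hold a motif match. The windows of this size at Apoa1 1536, Apob 1002, Afp 1906 and Cps1 58353 held none and are not printed. They are the Alb summit at 6573 (chr5:90615272-90615372, plus strand), the Afp summit at 10204 (chr5:90648738-90648838, plus strand), the Apob summit at 13358 (chr12:8040956-8041056, plus strand) and the Serpina1a summit at 2695 (chr12:103827065-103827165, minus strand). Capitals mark an HNF4 match in Alb and Serpina1a and a match to the CTCF consensus in Afp and Apob.
Alb 6573: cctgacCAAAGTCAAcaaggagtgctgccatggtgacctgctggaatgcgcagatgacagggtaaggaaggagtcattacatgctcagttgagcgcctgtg
Afp 10204: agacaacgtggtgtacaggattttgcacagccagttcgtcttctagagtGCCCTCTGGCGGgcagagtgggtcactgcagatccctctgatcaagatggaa
Apob 13358: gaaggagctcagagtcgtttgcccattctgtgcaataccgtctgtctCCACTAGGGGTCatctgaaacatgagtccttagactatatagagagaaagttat
Serpina1a 2695: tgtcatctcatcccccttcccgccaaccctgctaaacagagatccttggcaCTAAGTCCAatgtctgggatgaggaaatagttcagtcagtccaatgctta

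Across the 40 intervals the fold enrichment ran from 1.7 to 80.9 with a median of 3.9, beside a median of 2.55 over all intervals. A fold enrichment of at least 5 was reached by 13 (32.5%), against 24.5% of all intervals, and 16 were under 3. The median width was 530 bp, against 434 bp over all intervals. The 2 intervals above 80-fold lay at the start of another gene, Tomm40l beside Apoa2 and Plrg1 beside Fgb. The remaining 38 are called own intervals here, of which 11 reached 5-fold and 3 reached 10-fold. Those 3 were in Apoa1, Alb and Apob. Only intervals at another coding start were set apart, and some own summits also lie in another annotated gene. In bulk tissue, fewer cells with an open site and less opening in each cell cannot be told apart.

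**Figure D1:**
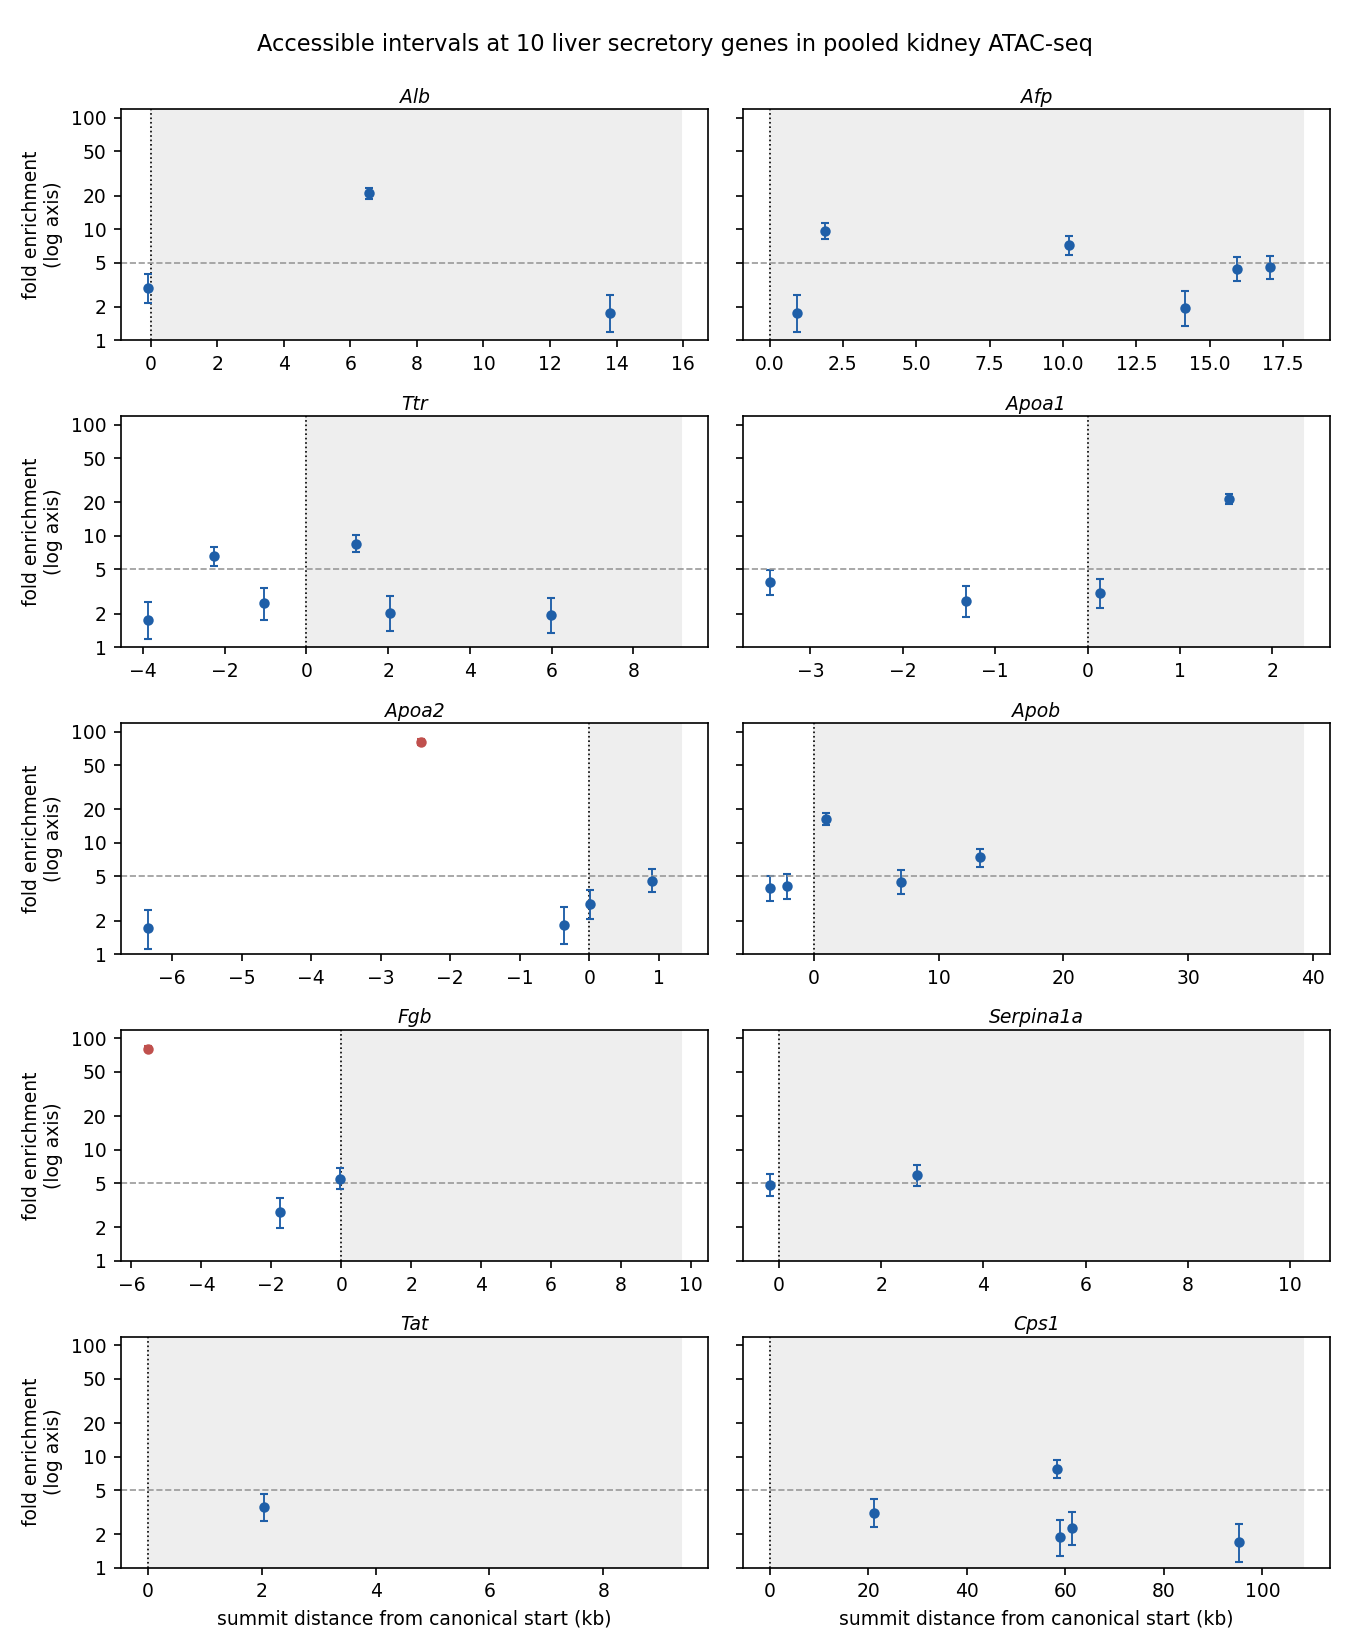
Fold enrichment at the highest summit of each of the 40 intervals (log axis) against its distance from the canonical start in kb, 1 panel per gene, with 95% Poisson intervals as error bars, grey shading over the gene from its start, a dashed line at 5-fold and red points for intervals at the start of Tomm40l or Plrg1. The points near the start (dotted line) are low in most panels, and the own intervals above 10-fold lie inside Alb, Apoa1 and Apob.

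Among the genes for carrier proteins, Alb encodes albumin, the main protein of plasma. The gene (ENSMUSG00000029368, chr5:90608647-90624696, plus strand) had 3 intervals. The interval over the start had its summit at -86 with a fold enrichment of 2.95 (2.16 to 3.93, 44 reads). A stronger interval of 1437 bp lay in the gene body, with its summit in coding exon 7 of 15 at 6573 and a fold enrichment of 21 (18.8 to 23.4, 320 reads). The 2 counting intervals do not overlap, so the exon signal was higher than the start signal beyond counting error. The third interval, in coding exon 13, was near the lowest value in the list at 1.77.

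Afp, which encodes alpha-fetoprotein, the fetal counterpart of albumin, lies next to Alb (ENSMUSG00000054932, chr5:90638584-90656766, plus strand) and had 6 intervals. Its nearest interval began 778 bp downstream of the start, with a fold enrichment of 1.77 (1.18 to 2.56) in intron 1. The strongest was in intron 2 at 1906, with 9.69 (8.2 to 11.4, 147 reads), and the next was in intron 7 at 10204, with 7.14 (5.87 to 8.6). The start of Afp thus had little signal, and both intervals above 5-fold were intronic. Those from 10204 onward also lie in the annotated gene Gm43449.

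Ttr encodes transthyretin, a carrier of thyroid hormone and of the retinol-binding protein (ENSMUSG00000061808, chr18:20797253-20807467, plus strand). It had 6 intervals that covered 30.7% of its span. The interval over the start was 1686 bp wide and held a summit of 6.55 at -26 and a higher summit of 8.51 (7.12 to 10.1, 129 reads) at 1218 in coding exon 2. A separate upstream interval with its summit at -2253 reached 6.61 (5.39 to 8.03) and held an HNF1 match within 100 bases of its summit. This summit and those at -3875 and -1029 also lie in the annotated gene Gm16090. Ttr was 1 of the 3 genes with a summit of at least 5-fold within 250 bp of the start, beside Apob and Fgb.

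Among the apolipoproteins, Apoa1 encodes the main protein of high-density lipoprotein (ENSMUSG00000032083, chr9:46139878-46142212, plus strand). It is the shortest of the genes and 50.8% of its span was covered by 4 intervals. The interval over the start had its highest summit at 132 in the untranslated part of exon 1, with a fold enrichment of 3.08 (2.27 to 4.08). The strongest interval, 1762 bp wide (chr9:46140571-46142332), peaked at 1536 in coding exon 4, the last exon, with 21.5 (19.2 to 23.9, 327 reads). As in Alb, the highest signal was in a coding exon and its counting interval was above that of the start.

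Apoa2, which encodes the second protein of high-density lipoprotein, had its highest value at the start of a neighbour (ENSMUSG00000005681, chr1:171049125-171053948, plus strand). The interval of 80.3 (75.9 to 85) at -2426 spans 5346 bp (chr1:171046596-171051941) and lies at the start of Tomm40l, a gene for a mitochondrial import protein. This interval also covers the 5′ end of the annotated Apoa2 gene, which lies upstream of the canonical start used here. Its summit is inside the annotated gene. Its edge is 682 bp from the canonical Apoa2 start, so by the 1 kb criterion Apoa2 counts as having a strong start-site interval. The interval over the Apoa2 start itself had 2.82 (2.05 to 3.78) at 10. The strongest own interval, in intron 3 at 908, reached 4.58 (3.58 to 5.78), so no own interval of Apoa2 reached 5-fold.

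Apob encodes the structural protein of very low-density and low-density lipoproteins (ENSMUSG00000020609, chr12:8027648-8066835, plus strand) and had 5 intervals. A 2749 bp interval over the start (chr12:8026848-8029596) held 7 summits. Of these, the summit at -19 had a fold enrichment of 6.35, and the highest, in intron 2 at 1002, had 16.5 (14.5 to 18.7, 251 reads). A further interval in intron 14 at 13358 reached 7.4 (6.1 to 8.89), and the remaining 3 lay between 3.93 and 4.45. All 5 had a -log10 q above 5, and all 5 also lie in the annotated gene Gm33037.

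For the clotting and protease inhibitor genes, Fgb encodes the beta chain of fibrinogen (ENSMUSG00000033831, chr3:82947448-82957170, minus strand). Its start-site interval peaked at -24 with a fold enrichment of 5.5 (4.39 to 6.8, 83 reads), over the HNF1 match printed above. This interval reached into the gene, but no interval had its summit there. The other own interval was at -1741 with 2.75 (1.99 to 3.71), and the interval of 80.9 at -5529 lies at the start of Plrg1, a splicing factor gene. Fgb was the 1 gene of the 10 whose strongest own interval had its summit within 250 bp of the start.

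Serpina1a encodes an alpha-1-antitrypsin, the main inhibitor of neutrophil elastase in plasma (ENSMUSG00000066366, chr12:103819554-103832088, minus strand). It had 2 intervals, one over the start with 4.84 (3.81 to 6.07) at -184 and one in intron 1 with 5.89 (4.74 to 7.24) at 2695, whose counting intervals overlap. The gene has near-identical copies, and reads that did not map uniquely had been removed. Of the 50-base words of its span, 52% occur once in the genome, against 94.7% to 99.6% in the other 9 genes. The shares in its 2 intervals were 61.3% at the start and 67.4% in intron 1. The values of Serpina1a are therefore uncertain, and the part of mappability in them was not tested.

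The enzyme genes had the least signal at the start. Tat encodes tyrosine aminotransferase, which begins tyrosine breakdown (ENSMUSG00000001670, chr8:110717063-110726435, plus strand), and had a single interval, in intron 3 at 2032 with a fold enrichment of 3.54 (2.66 to 4.6, 53 reads). The nearest interval of at least 5-fold was 26782 bp upstream. Cps1 encodes carbamoyl phosphate synthetase, which feeds ammonia into the urea cycle (ENSMUSG00000025991, chr1:67161988-67270418, plus strand). In its 108431 bp it had 5 intervals, none within 20905 bp of the start. The strongest, in intron 21 at 58353, reached 7.79 (6.46 to 9.32, 118 reads), and the others lay between 1.7 and 3.14. Intervals covered 1.21% of the Cps1 span, the lowest share of the 10 genes.

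The order of the strongest own intervals was Apoa1, Alb, Apob, Afp, Ttr, Cps1, Serpina1a, Fgb, Apoa2 and Tat. The counting intervals of neighbours in this order overlap except between Alb (18.8 to 23.4) and Apob (14.5 to 18.7) and between Apob and Afp (8.2 to 11.4). The counting intervals of Apoa1, Alb and Apob thus lay above those of the other 7 genes, while ranks among the rest are mostly not separated. Each value is the highest summit among the own intervals of its gene, a choice that the counting intervals do not cover. Among the 11 own intervals of at least 5-fold, 9 had their summit more than 250 bp downstream of the start, 1 within 250 bp and 1 further upstream. By annotation 6 summits were in introns, 3 in coding exons and 2 upstream.

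**Figure D2:**
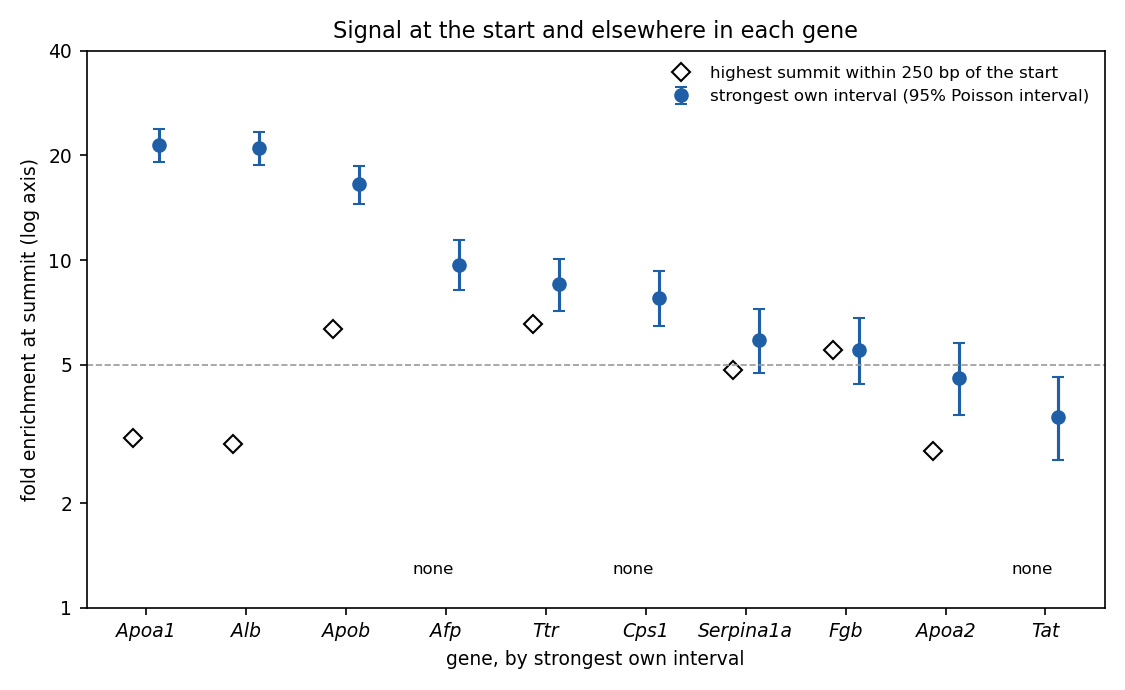
Fold enrichment (log axis) of the highest summit within 250 bp of the start (open diamonds) and of the strongest own interval with its 95% Poisson interval (filled circles) in each gene, with a dashed line at 5-fold and "none" where no summit lay within 250 bp. The diamonds lie between 2.82 and 6.55 and are under the circles in every gene that has one except Fgb, where both are the same summit of 5.5.

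How far these counts differ from other genes depends on the genes set beside them. All 10 genes were CpG-poor at the start, with an observed over expected CpG ratio from 0.135 to 0.395 in 1001 bp, where the median protein-coding gene had 0.575. A ratio under 0.4 was taken as CpG-poor, which holds for 8193 genes (37.7%), and 18.8% of those are olfactory or vomeronasal receptor genes. This group was added after the data were seen, and Afp, at 0.395, lies just inside its limit. An interval in the span was present for 10 of 10 genes, against 83.2% of all protein-coding genes and 58.8% of CpG-poor ones.

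At the start, 8 of 10 genes had an interval within 1 kb, close to the 75.8% of all protein-coding genes and above the 41.6% of CpG-poor ones. Tat and Cps1 were the exceptions. An interval of at least 5-fold within 1 kb was present for 5 of 10 (Ttr, Apoa1, Apoa2, Apob and Fgb), against 66.2% and 24.8%. The interval had to reach within 1 kb, but its highest summit, which gives the value, could lie farther away. That summit was at 1218 in Ttr, 1536 in Apoa1, -2426 in Apoa2, 1002 in Apob and -24 in Fgb. A summit within 250 bp was present for 7 of 10, against 68.2% and 34.1%, and one of at least 5-fold for 3 of 10, against 57.4% and 16.7%. Each share of at least 5-fold was thus under that of all protein-coding genes and above that of CpG-poor ones. These are counts over 10 genes chosen with results known, and no test was made.

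The levels were under those of all protein-coding genes and at or near those of CpG-poor ones, apart from the strongest interval. Where an interval lay within 1 kb, its median fold enrichment was 7.01, against 30.1 over all protein-coding genes with one and 7.2 over CpG-poor genes. These values are of the highest summit of the interval, wherever it lay, and are not signal at the start alone. Within 250 bp the medians were 4.84, 27.6 and 4.84. The median of the strongest interval was 13.1, against 30.8 and 10.5, and it was 8.15 without the intervals at Tomm40l and Plrg1, against 21.1 and 8.38. The strongest own interval had its summit within 250 bp of the start in 1 of 10 genes, against 44.9% of protein-coding genes with an own interval and 20.1% of CpG-poor ones. Among genes whose strongest own interval reached 5-fold it did so in 1 of 8, against 52.4% and 22.2%. Both counts rest on Fgb alone.

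Set beside other gene lists, the liver secretory genes lay between genes that the kidney uses and products of other organs in their start-site intervals. They did not in the strongest interval of the span, whose median was 13.1 here and 14.3 for products of other organs. Of 31 other genes for proteins secreted by liver, 24 (77.4%) had an interval within 1 kb of the start and 14 (45.2%) one of at least 5-fold, with a median start fold enrichment of 7.86. Of 12 other liver enzyme genes, 8 (66.7%) and 4 (33.3%) did, with a median of 4.45. The secreted liver products were near the 10 genes in these shares. The liver enzymes were lower, by a few genes in short lists, and no test was made. The 10 genes themselves include the enzyme genes Tat and Cps1, and Apoa2 reached 5-fold only through the interval at Tomm40l. Apoa1 did so only through the interval that peaked in its last exon.

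Of 10 genes that liver and proximal tubule share, 10 had an interval within 1 kb and 9 one of at least 5-fold, with a median of 25. The values ran from 4.65 in Apom, an apolipoprotein gene, to 40.5 in Asl, for argininosuccinate lyase. For Asl the highest summit within 250 bp of the start had only 1.9. Intervals at the start of another gene were not excluded for the lists. Of 12 proximal tubule markers, which check the labelled tissue, 11 had an interval of at least 5-fold, with a median of 10.5. They ran from 5.3 in Slc22a6, an organic anion transporter gene, to 33.1 in Lrp2, for the endocytic receptor megalin, and Slc22a8 had none within 1 kb. Of 21 products of other organs, 8 (38.1%) had an interval and 2 (9.52%) one of at least 5-fold, with a median of 2.16. Of these, Cela1, for a pancreatic elastase, had the highest value, 8.31, and Ckm, Gfap and Ins1 the lowest, 1.96. Over all protein-coding genes the shares were 75.8% and 66.2%, with a median of 30.1. The lists differ in CpG class. CpG-poor were 6 of the 10 shared genes, 8 of the 12 proximal tubule markers and 16 of the 21 products of other organs. All 10 liver secretory genes were, and the part of CpG content was not tested.

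The genes for the regulators themselves also had start-site intervals. All 9 listed, among them Hnf4a, Foxa2, Foxa3, Cebpa and Onecut1, had one of at least 5-fold within 1 kb, against 66.2% of all protein-coding genes. The values ran from 8.64 in Onecut1 to 71 in Foxa3. A summit within 250 bp was present for 8 of the 9, and one of at least 5-fold for 7, against 68.2% and 57.4%. For Foxa3 the highest summit within 250 bp had 21.3, and for Foxa2 it had 4.45. Hnf4a had 25.7, above the start-site value of each liver secretory gene other than Apoa2. Only 2 of these 9 genes were CpG-poor, against 10 of the 10 liver secretory genes, and the part of CpG content in this difference was not tested.

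**Figure D3:**
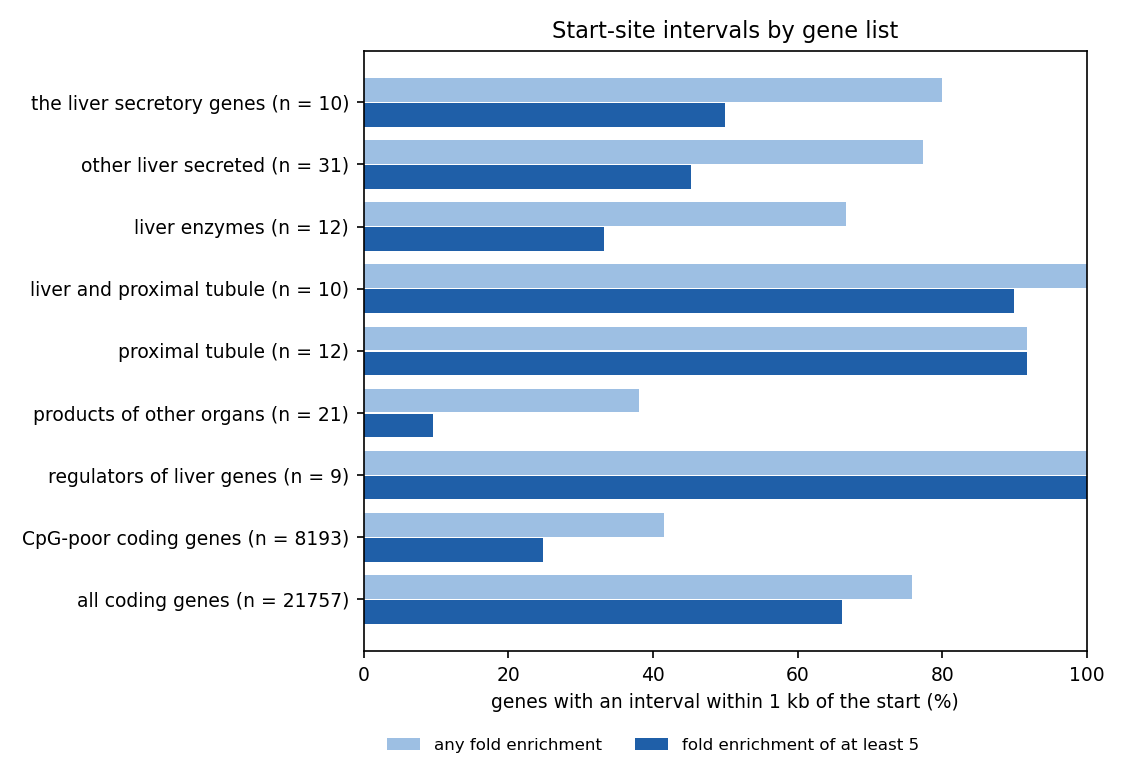
Share of genes in percent with an interval within 1 kb of the start (light bars) and with one of at least 5-fold (dark bars), for each gene list and for CpG-poor and all protein-coding genes. The liver secretory genes, at 80% and 50%, lie near the other secreted liver genes (77.4% and 45.2%), under the proximal tubule markers (91.7% for both) and above the products of other organs (38.1% and 9.52%).

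Several of the genes lie in clusters of related liver genes, and neighbours differed from them. In the cluster of Alb, Afp and Afm, the start of Afm, which encodes the vitamin E carrier afamin, had 18.1 (16.1 to 20.4) at -357, against 2.95 for Alb and 1.77 for Afp. A further interval between Afp and Afm, at -6192 from Afm, had 10.3 (8.74 to 12). The start with the highest value in this cluster was therefore not that of Alb or Afp, and the counting intervals do not overlap.

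In the apolipoprotein cluster, Apoc3, whose product slows the clearance of triglyceride, had 13.3 (11.5 to 15.2) at -124, and Apoa4 had 7.07 (5.81 to 8.53) at 64. Both were above the Apoa1 value of 3.08 over the start and under its value of 21.5 in exon 4. Apoa5 had 1.83 (1.23 to 2.64) at -439. The highest value in this cluster was 31.6 at the start of Zpr1, a gene outside the family.

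In the fibrinogen cluster, all 3 chains had a start-site interval. Fga had 24.2 (21.8 to 26.8) at -101, Fgg had 8.51 (7.12 to 10.1) at -8, and Fgb had 5.5 (4.39 to 6.8) at -24, and these counting intervals do not overlap. Fgb was thus the lowest of the 3, although the chains are assembled into 1 protein. The 5 Serpina1 genes and their flanks held 21 intervals, of which only the Serpina1a interval of 5.89 reached 5-fold. The start of Serpina1b had 4.12, and Serpina1c, Serpina1d and Serpina1e had no interval within 1 kb. Between 49.3% and 63.1% of the 50-base words in the spans of these 4 copies occur once in the genome, so low values there are uncertain as well.

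**Figure D4:**
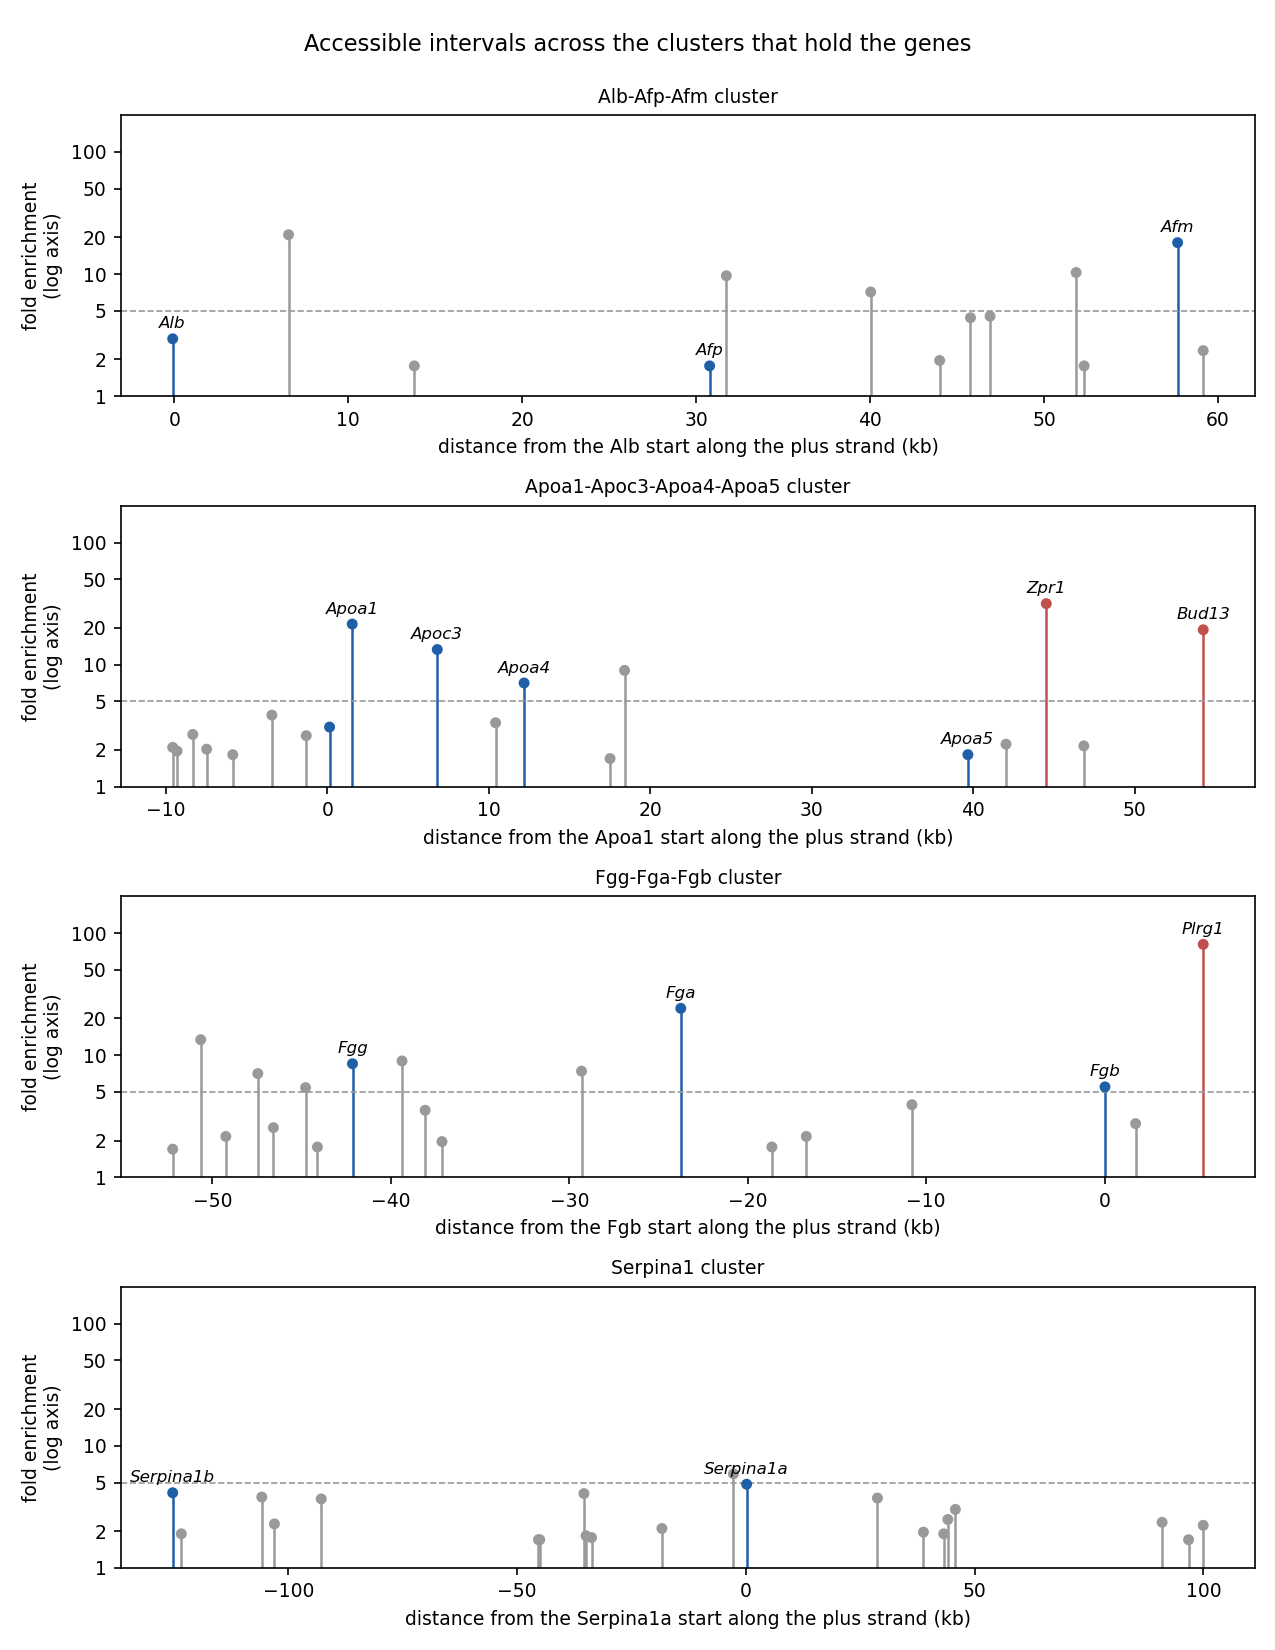
Fold enrichment (log axis) of every interval across the 4 clusters against distance in kb from the start of Alb, Apoa1, Fgb or Serpina1a, with blue marks for intervals within 1 kb of a cluster gene's start, red marks for those at the start of another gene, grey for all others and a dashed line at 5-fold. In their clusters, Afm stands above the start-site marks of Alb and Afp, and Fga above that of Fgb. Apoc3 (13.3) stands above the mark over the Apoa1 start (3.08) and under the Apoa1 mark that peaks in exon 4 (21.5). The Serpina1 cluster has 1 mark above 5-fold.

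The sequence under the stronger intervals was searched in windows of 201 bases around each summit. Of the 11 own windows of at least 5-fold, 2 held an HNF1 match (Fgb at -24 and Ttr at -2253), against 5.83% of all intervals of at least 5-fold. An HNF4 match was present in 3, against 11.8%, a C/EBP match in 1, against 4.04%, and a FOXA match in none, against 2.96%. The HNF4 matches were in Alb at 6573, Ttr at 1218 and Serpina1a at 2695. The only HNF4 match without a mismatch at any of the genes began 10 bases before the intron 6 summit of Apob at 6962, where the fold enrichment was 4.45.

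A search for the CTCF consensus was added after the summit sequences had been read. With up to 1 mismatch it matched 4 of the 11 windows, Afp at 10204, Apoa1 at 1536 and Apob at 1002 and 13358, against 14.2% of all intervals of at least 5-fold. In Afp at 10204 and Apob at 13358 the match covered the summit base, as it did in 3.31% of all such intervals, and it is printed in capitals above. Of the 27 own intervals under 5-fold, 2 matched, against 5.06% of all intervals under 5-fold. In Cps1 at 21115, where the fold enrichment was 3.14, the match had no mismatch and covered the summit base. No promoter of the 10 genes matched, against 4.9% of all promoters. Since the motif was chosen from these sequences, the counts are a description, and CTCF binding was not measured.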

How the data were processed

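ATAC-seq was done on nuclei from mouse kidney, 3 WT and 3 Acly cKO libraries by the labels. The authors trimmed reads, aligned them to mm39, dropped duplicate and non-unique alignments, and called peaks with an extension of 200 bp, a shift of 100 bp, q under 0.05 and summit calling. The submitters' processing notes name Bowtie2 2.3.4.3, MACS3 3.0.0, bedtools 2.29.1 and deepTools 3.5.1. The deposited list gives the authors' fold enrichment, a linear ratio, the -log10 p-value and -log10 q of each summit, and a score that the authors' caller made as 10 times the -log10 q. A deposited list of summits before filtering added 0 summits at the genes. The depth of single libraries is unknown.

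Rows were grouped into intervals by chromosome, start and end. Every summit under 20-fold was a whole multiple of a step of 0.0655 (tolerance 0.05 of a step) and its p equalled a Poisson tail for a background of 14.3 reads, so reads at a summit were recovered. For 97.3% of all summits the p did so. Exact Poisson intervals at 95% are given, and reads without molecular identifiers are not independent molecules. All sequences are from the GRCm39 genome. Overlaps and motif searches were tested on simulated data, and 500 of 500 planted cases were recovered for each motif and for the overlaps. Tools were numba 0.67.0, pysam 0.24.0, pandas 2.3.3, numpy 2.4.6, scipy 1.17.1 and Python 3.11.15.

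The text names all 10 genes, with their strongest and nearest intervals and up to 2 more of at least 5-fold, their cluster neighbours, and of the lists (other liver secreted, liver enzymes, shared by liver and proximal tubule, proximal tubule, products of other organs, regulators) the counts and genes with the highest and lowest values at the start. Hnf4a, Foxa2, Cebpa, Ass1, Arg1 and Nags are among the genes outside this rule and were chosen after their values were seen. Some items of the lists are not reported here by name. The genes and lists were chosen with earlier results of these data known. No test across samples was possible.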

Additional observations from a re-analysis of the deposited data

How the results depend on the processing

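No paired analysis was possible because the peak list is pooled and holds no value of a single library, and for the same reason no replicate could be left out in turn. The number of intervals at the 10 genes (40) was 29 at a -log10 q of at least 5, 13 at a fold enrichment of at least 5, 90 when summits were counted and 72 with 10 kb on either side of each gene. The number of genes with a start-site interval (8) was 5 when 5-fold was required and between 6 and 8 under 6 other definitions of the start, of the overlap or of the q. The number with a start-site interval of at least 5-fold (5) was 3 at 10-fold and also 3 when a summit of that height had to lie within 250 bp, a criterion added after the data were seen. The median fold enrichment of the strongest interval (13.1) was 8.15 without intervals at another coding start, 17.3 with 10 kb on either side and 16.5 without Serpina1a, which was added after the data were seen. With 1 fewer mismatch the promoter matches fell to 0 for HNF1, HNF4 and C/EBP, and with 1 more they numbered 3 for HNF1, 9 for HNF4, 9 for FOXA and 7 for C/EBP, while the share of all promoters that matched rose to 8.03%, 58.6%, 45.2% and 59%. Differences among the genes under the counting intervals printed above cannot be resolved at this depth, where the lowest listed summit had 25 reads.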

Other observations

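Among the other secreted liver genes, those with the highest start-site values were Ambp, which encodes the precursor of alpha-1-microglobulin and bikunin, with a fold enrichment of 58, C3, the central complement component, with 46.4, and Cp, which encodes the copper carrier ceruloplasmin, with 37.8. For Ambp the highest summit within 250 bp of the start had 3.67, so the summit of 58 lay farther from the start. For C3 and Cp the corresponding summits had 20.2 and 20. At the other end, Ahsg and Saa1 had no interval in their span, and Apoa5, Hpx, F2 and Hp had start-site values from 1.83 to 2.03. The same list therefore held genes with strong signal in kidney and genes with none.

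Among the liver enzyme genes, Cyp7a1, Otc and Tdo2, for bile acid synthesis, the urea cycle and tryptophan breakdown, had no interval in their span. Hal had the lowest start-site value of those with an interval, 1.7. Otc and Cps1, which act in sequence in the urea cycle, both had no interval within 1 kb of the start, whereas Ass1 and Asl, which act after them and which the proximal tubule uses to make arginine, had 24.5 and 40.5. For Asl the highest summit within 250 bp had 1.9. Arg1 and Nags, also of this pathway and in the liver enzyme list, had start-site values of 3.67 and 3.4. The CpG ratio, as defined above, was 0.538 in Ass1, 0.251 in Asl, 0.203 in Cps1 and 0.0651 in Otc. Its part in these values was not tested. These genes were set side by side after their values were seen.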
